A study of Homo sapiens with 12 samples.

Results

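A set of 10 genes of the neuronal cytoskeleton was described in HEK293T cells, a line derived from human embryonic kidney and transformed with adenoviral DNA, to which a viral large T antigen was added. The genes were NEFL, NEFM, NEFH, INA, VIM, TUBB3, TUBB2B, MAP1B, MAP2 and DCX, taken by symbol from both deposited expression tables, out of the 26485 genes listed in each. PolyA RNA came from cells transfected with PX330-GFP plasmids in 4 groups of 3 libraries. By their labels these were PX330-GFP-cas9-6T-sgRNA, PX330-GFP-noCas9-6T-sgRNA, PX330-GFP-cas9-luciferase-sgRNA and PX330-GFP-noCas9-luciferase-sgRNA, so that every group received a single guide RNA (sgRNA) and a plasmid named for GFP. The labels do not describe the target of the 6T guide, and the Luciferase guide is directed against a gene that human cells lack. The study asked how host expression differs between transfection with and without Cas9. The authors deposited 1 table per guide, which lists the mean normalized reads of its conditions B and A. Since no header states which of them received Cas9, or that the order matched between guides, every difference within a guide is stated as B over A.

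Intermediate filaments and microtubules are the long polymers of the cytoskeleton. In mature neurons the neurofilament proteins NEFL, NEFM and NEFH, together with alpha-internexin (INA), build the filaments that set axon calibre, while vimentin (VIM) is the intermediate filament of mesenchymal cells and of neural progenitors. TUBB3 and TUBB2B are beta-tubulin isotypes enriched in neurons, MAP1B and MAP2 are microtubule-associated proteins of growing axons and of dendrites, and doublecortin (DCX) stabilizes microtubules in migrating young neurons. HEK293T and its parent line are known to express several neuronal genes although they were made from embryonic kidney.

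The deposited means were resolved into the reads of each library, and the libraries of a group are numbered 1 to 3 by size factor, which carries no replicate number. A library held 6658726 to 8294447 reads in genes in 6T condition B and 6356353 to 8242754 in 6T condition A. The totals ranged from 19400206 to 38076083 in Luciferase condition B and from 5894341 to 8234922 in Luciferase condition A, so depth and condition went together under the Luciferase guide. All 10 genes were recovered in all 12 libraries. The labels give no preparation batch, and the guide and any difference in preparation between its libraries cannot be told apart.

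Promoter sequences of 300 bases around the annotated start were listed by RefSeq (GRCh38.p14) for 7 of the 10 genes. NEFL, NEFM and NEFH were not among them. The windows of 3 genes are given because their genes stood at very different levels in these cells, INA and VIM high and DCX at almost no reads, with each CpG dinucleotide in capitals. They lie at chr10:103276888-103277187 on the plus strand (INA), chr10:17227991-17228290 on the plus strand (VIM) and chrX:111412143-111412442 on the minus strand (DCX, the first of 3 listed starts).
INA: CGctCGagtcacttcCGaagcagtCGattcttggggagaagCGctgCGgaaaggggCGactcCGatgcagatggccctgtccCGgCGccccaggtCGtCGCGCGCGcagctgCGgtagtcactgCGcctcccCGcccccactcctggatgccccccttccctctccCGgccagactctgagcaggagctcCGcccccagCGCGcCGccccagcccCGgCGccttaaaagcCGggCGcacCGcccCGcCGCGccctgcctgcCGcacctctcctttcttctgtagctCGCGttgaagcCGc
VIM: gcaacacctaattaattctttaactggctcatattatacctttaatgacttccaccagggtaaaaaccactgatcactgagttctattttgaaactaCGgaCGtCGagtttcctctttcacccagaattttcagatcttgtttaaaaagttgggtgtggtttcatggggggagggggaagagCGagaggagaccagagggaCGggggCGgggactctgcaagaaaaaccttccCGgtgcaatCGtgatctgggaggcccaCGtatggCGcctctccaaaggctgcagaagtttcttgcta
DCX: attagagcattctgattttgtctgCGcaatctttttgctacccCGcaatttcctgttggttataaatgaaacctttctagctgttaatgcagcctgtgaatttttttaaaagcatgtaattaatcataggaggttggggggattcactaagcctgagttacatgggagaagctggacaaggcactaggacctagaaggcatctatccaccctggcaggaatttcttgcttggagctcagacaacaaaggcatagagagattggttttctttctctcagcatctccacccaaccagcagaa
The INA window held 35 CpG, more than 85.9% of the 35116 promoters listed, at a GC content of 71.3%. The VIM window held 10 CpG at 48.0% GC, more than 43.6% of promoters, and the DCX window 2 CpG at 43.0% GC, more than 11.0%. This VIM window lies at the outermost annotated start of the gene, and starts further inside the gene were not examined. The median promoter held 14 CpG at 58.7% GC. The hexamer GGGCGG, the core of a GC box, was found on either strand of the INA and VIM windows and not of the DCX window, and 45.0% of all promoters hold it. The hexamer TATAAA was found in this DCX window and in both MAP1B windows, not in those of INA or VIM, and 11.5% of all promoters hold it. CpG counts of the other windows were 47 and 9 for TUBB3, 34 for TUBB2B, 31 and 12 for MAP1B, 10, 7 and 5 for MAP2, and 2 and 4 for the further DCX starts. These counts describe the sequences, and the level of a gene was not tested against them.

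Of the 10 genes, 7 had a mean above 100 normalized reads and 3 (NEFH, MAP2 and DCX) were far lower. Levels of different genes were compared as normalized reads per kilobase of union exon length, with the mean and SD over the 12 libraries. VIM stood highest at 1036 ± 73.5 reads per kilobase, above 98.1% of the 13198 expressed genes with a length, and NEFM followed at 816 ± 114, above 97.4%. NEFL reached 469 ± 42.7, TUBB2B 351 ± 24.4 and INA 204 ± 24.5 reads per kilobase, above 93.7%, 90.6% and 81.9% of expressed genes. A pair of neurofilament subunits, NEFM and NEFL, thus ranked near the top of the expressed genes, at rank 349 and 837. MAP1B stood at 104 ± 14.9 and TUBB3 at 49.9 ± 6.92 reads per kilobase, on both sides of the median expressed gene at 58.2. NEFH reached 3.27 ± 1.17, MAP2 0.955 ± 0.422 and DCX 0.0609 ± 0.0868 reads per kilobase.

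The order of these levels was the same in 12 of 12 libraries for every pair of neighbours. The ranges over the libraries overlapped only for VIM and NEFM, with a lowest VIM level of 956 and a highest NEFM level of 985 reads per kilobase. The ratio of a level to the next was 1.27 from VIM to NEFM and between 1.33 and 2.08 down to TUBB3. It then widened to 15.2 from TUBB3 to NEFH, 3.43 from NEFH to MAP2 and 15.7 from MAP2 to DCX. VIM, NEFM and NEFL held 34.1%, 26.9% and 15.5% of the summed level of the 10 genes, TUBB2B 11.6%, INA 6.72%, MAP1B 3.41% and TUBB3 1.64%. Divided by the longest transcript instead, VIM stood at 2004 and TUBB3 at 112 reads per kilobase, so TUBB3 then lay above MAP1B at 109.

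**Figure D1:**
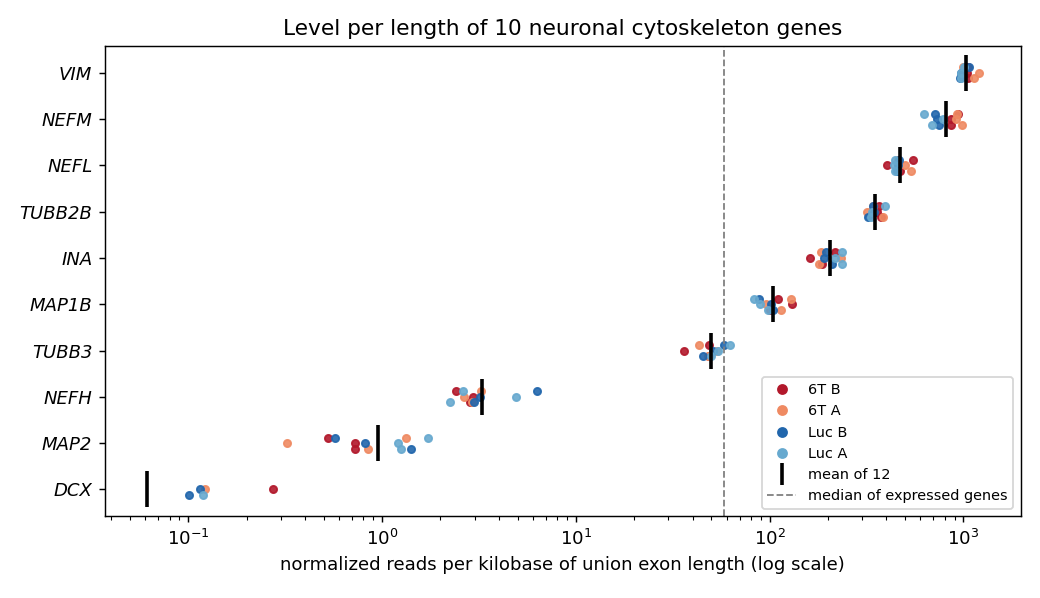
Normalized reads per kilobase of union exon length on a log axis for the 10 genes, with 1 point per library (6T B, 6T A, Luciferase B, Luciferase A), a bar at the mean of 12 and a dashed line at the median of expressed genes. VIM, NEFM, NEFL, TUBB2B, INA and MAP1B have means to the right of the median at 58.2, and 7 DCX libraries with 0 reads are not drawn.

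The 4 neuronal intermediate filament genes differed widely in level, and 3 of them were abundant. NEFL, the light subunit on which the other neurofilament proteins assemble (chr8:24950955-24957110, minus strand, GRCh38), had 2392, 1737 and 2040.4 normalized reads in 6T condition B and 1992, 2169 and 2332 in 6T condition A. It had 2003, 1993 and 1955 normalized reads in Luciferase condition B and 1916, 1907 and 1922 in Luciferase condition A. The 6T libraries spread around the Luciferase libraries on both sides, with an SD of 241 against 41.1 normalized reads (n = 6 each). The Luciferase conditions did not overlap, as for 16% of tested genes. NEFM, the medium subunit (chr8:24913012-24919098, plus strand), had 4090.5, 3799.7 and 3774 normalized reads in 6T condition B and 4063, 4025 and 4317 in 6T condition A. It had 3137, 3217 and 3296 normalized reads in Luciferase condition B and 2739, 3421 and 3031 in Luciferase condition A. Every 6T library lay above every Luciferase library for NEFM, a separation of the guides in either direction that 2.85% of tested genes showed.

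INA, which joins the neurofilaments (chr10:103277163-103290351, plus strand), had 699, 522 and 603 normalized reads in 6T condition B and 595, 755 and 583 in 6T condition A. It had 633, 613 and 675 normalized reads in Luciferase condition B and 762, 705 and 763 in Luciferase condition A. The guides overlapped, while the Luciferase conditions did not, as for 16% of tested genes. NEFH, the heavy subunit that is added to filaments late in neuronal maturation (chr22:29480230-29491390, plus strand), reached 9.10 to 11.2 normalized reads in 6T condition B, 9.98 to 12.3 in 6T condition A, 11.3 to 23.9 in Luciferase condition B and 8.49 to 18.6 in Luciferase condition A. These rest on 23 reads in 6T condition B, 25 in 6T condition A, 122 in Luciferase condition B and 25 in Luciferase condition A. The conditions overlap within each guide, and the 6 libraries of the 6T guide overlap with the 6 of the Luciferase guide. The light and medium subunits were thus abundant, and the heavy subunit was detected at 31 to 47 reads in the deeper Luciferase condition B libraries and at 6 to 12 reads in each of the others.

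VIM (chr10:17228259-17237593, plus strand) had 5475, 5358 and 5445 normalized reads in 6T condition B and 5109, 6199 and 5822 in 6T condition A. It had 5500.4, 5025 and 4933 normalized reads in Luciferase condition B and 5224, 5019.8 and 4991 in Luciferase condition A. The guides overlapped, as did the conditions within each guide, with the 2 highest libraries both in 6T condition A. Within each library the NEFM count was 1.71 to 2.19 times the NEFL count under the 6T guide and 1.43 to 1.79 times under the Luciferase guide, and the INA count was 0.250 to 0.348 times against 0.308 to 0.397 times the NEFL count. Both pairs of ranges overlap, and the counts are not divided by length.

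Among the tubulins, TUBB2B, an isotype of the developing brain (chr6:3224261-3231730, minus strand), ranged from 782 to 827 normalized reads in 6T condition B and from 695 to 839 in 6T condition A. It ranged from 709 to 759 in Luciferase condition B and from 727 to 866 in Luciferase condition A. TUBB3, the isotype used as a neuronal marker (chr16:89921392-89938761, plus strand), ranged from 159 to 216 normalized reads in 6T condition B and from 191 to 236 in 6T condition A, against 201 to 257 in Luciferase condition B and 221 to 278 in Luciferase condition A. The 6T and Luciferase ranges overlapped for both genes. Both counts are uncertain, for different reasons. Of the 50-base words of TUBB2B, 52.2% occur also in other genes, mostly its near copy TUBB2A. Of those of TUBB3, 79.6% occur also in other genes, mostly in a gene annotated over it on the same strand. Words shared at the same place do not by themselves make a read align more than once. Whether the overlapping gene took reads from the TUBB3 count was not tested.

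The microtubule-associated proteins stood far apart. MAP1B, which is prominent in growing axons (chr5:72107234-72209570, plus strand), had 1392, 1644 and 1272 normalized reads in 6T condition B and 1621, 1204 and 1439 in 6T condition A. It had 1118, 1291 and 1317 normalized reads in Luciferase condition B and 1051, 1119.6 and 1233 in Luciferase condition A. The lowest 6T libraries lay inside the Luciferase range and the 4 highest above it. MAP2, the dendritic protein used as a marker of mature neurons (chr2:209424058-209734118, plus strand), ranged from 6.07 to 8.38 normalized reads in 6T condition B, from 3.74 to 15.4 in 6T condition A, from 6.60 to 16.4 in Luciferase condition B and from 13.9 to 19.8 in Luciferase condition A. These rest on 17 and 21 reads in 6T conditions B and A and on 101 and 33 reads in Luciferase conditions B and A, and the 6T and Luciferase ranges overlap. DCX (chrX:111293779-111412429, minus strand) had 2 reads in 6T condition B, 1 in 6T condition A, 7 in Luciferase condition B and 1 in Luciferase condition A, and 7 of 12 libraries had 0 reads, a count that allows up to 3 reads in a library by counting error alone. No fold is given for DCX.

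**Figure D2:**
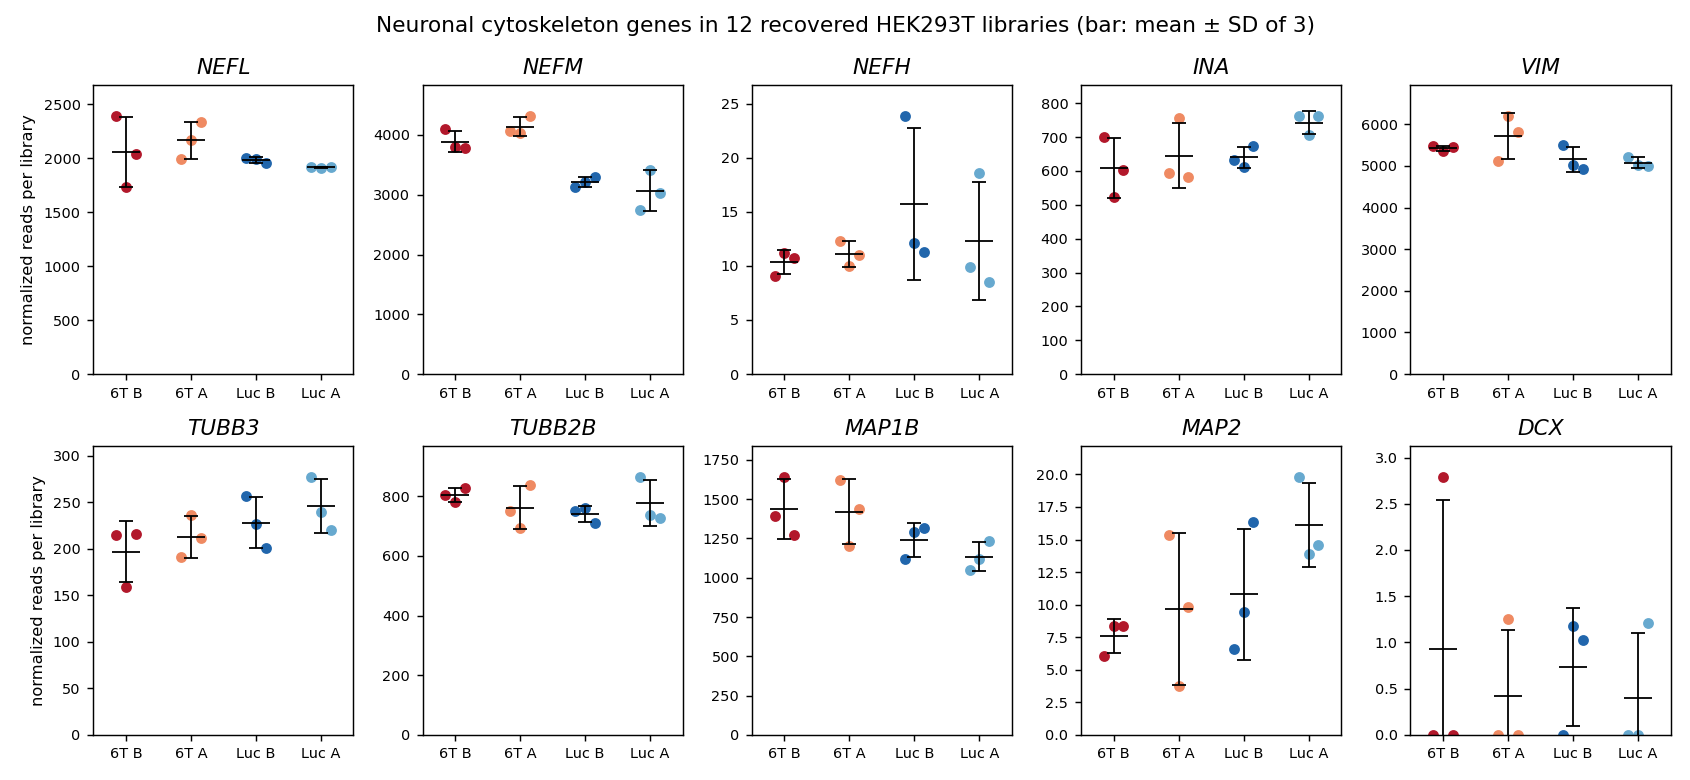
Normalized reads of each gene in the 12 recovered libraries, in 6T condition B, 6T condition A, Luciferase condition B and Luciferase condition A, with a bar at the mean and error bars of 1 SD (n = 3). For NEFM the 6T libraries lie between 3774 and 4317 and the Luciferase libraries between 2739 and 3421, while for the other genes the guides overlap.

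Conditions B and A, which differ in Cas9, were compared within each guide by the authors' deposited DESeq test. No gene of the 10 passed an adjusted p under 0.05 under either guide. Under the 6T guide the test called 0.0416% of the 19246 genes with a p-value (8 genes), and under the Luciferase guide 0% of 20194 genes (0 genes), with 167 and 246 genes at an unadjusted p under 0.05. None of the 10 was among those, with p-values in the authors' deposited tables from 0.517 to 0.987 under the 6T guide and from 0.251 to 1 under the Luciferase guide, and an adjusted p of 1 for each.

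The deposited fold changes of the abundant genes were small. For the 7 genes with a mean above 100 normalized reads, the log2 fold change of condition B over A in the authors' deposited tables lay between −0.11 (TUBB3) and 0.08 (TUBB2B) under the 6T guide and between −0.21 (INA) and 0.13 (MAP1B) under the Luciferase guide. NEFM averaged 3888 ± 176 normalized reads in 6T condition B and 4135 ± 159 in 6T condition A (SD, n = 3 each), a deposited log2 fold change of −0.09. INA averaged 640.3 ± 31.7 normalized reads in Luciferase condition B and 743 ± 32.9 in Luciferase condition A (SD, n = 3 each), a deposited log2 fold change of −0.21, with the 3 condition B libraries below the 3 condition A libraries. Over the 10 genes, 7 had a lower mean in condition B under the 6T guide and 4 under the Luciferase guide. Their median log2 fold change was −0.08 against −0.03 over 14051 genes under the 6T guide, and 0.04 against −0.01 over 14087 genes under the Luciferase guide.

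The same comparisons were fitted with limma on the recovered libraries, where 9 of the 10 genes passed the filter on low counts and DCX did not. limma called 0.0215% of 13941 genes under the 6T guide (3 genes) and 0% under the Luciferase guide (0 genes), with 434 and 1532 genes at an unadjusted p under 0.05, and 0 of the 9 in either. The adjusted p of the 9 was 1.00 under the 6T guide and lay between 0.445 and 0.915 under the Luciferase guide. The interval of the NEFM difference was −0.26 to 0.08 (log2, 95%) under the 6T guide and −0.10 to 0.25 under the Luciferase guide. For VIM it was −0.23 to 0.09 and −0.14 to 0.18 under the same guides. Libraries of conditions B and A did not overlap for 7.94% of genes under the 6T guide and 0 of the 9, and for 16% of genes under the Luciferase guide and 2 of the 9, NEFL and INA. The change in condition B over A was also compared between guides, with 0% of genes called (0 genes, and 1338 at an unadjusted p under 0.05) and adjusted p-values of the 9 genes from 0.517 to 0.981.

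Between guides, NEFM was higher under the 6T guide than under the Luciferase guide, and none of the other 8 tested genes passed the threshold. Both tables shared one normalization, so the guides were compared in the same limma fit as the mean of both conditions, which does not depend on which condition held Cas9. NEFM averaged 4011 ± 202 normalized reads in 6T libraries and 3140.1 ± 237 in Luciferase libraries (SD, n = 6 each), a fold of 1.28 (95% interval 1.18 to 1.39). The log2 difference in limma was 0.36 (SE 0.06, adjusted p = 0.0155), with all 6 libraries of the 6T guide above all 6 Luciferase libraries. limma called 1.13% of 13941 genes (158 genes, 31 higher and 127 lower under the 6T guide), and 1 of the 9. The size of the excess of lower calls varied with the setting. The split was 83 higher and 274 lower with scaling by total reads and 42 and 86 after a correction for GC content. With libraries thinned to the smallest total it was 45 and 107. Without the 3 Luciferase condition B libraries, both 6T conditions were set against Luciferase condition A alone, with 110 and 147. Only without Luciferase condition A library 2 was the excess lost, at 169 and 166. The NEFM log2 difference after the GC correction was 0.43. Libraries of the guides did not overlap for 2.85% of genes, and for 1 of the 9 genes, NEFM.

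Not every subset of libraries gave the NEFM call. Leaving out each library in turn gave log2 differences from 0.32 to 0.40 and kept the call in 10 of 12 cases, and the call was lost without Luciferase condition A library 3 (0.35, adjusted p = 0.0509) and without Luciferase condition B library 1 (0.35, adjusted p = 0.0596). Without the 3 deeply sequenced Luciferase condition B libraries the log2 difference was 0.39 (adjusted p = 0.0476 in limma). An antisense gene covers 38.9% of the exon bases of NEFM, and whether the counting used strand is not given in the sources used here, so reads of the pair cannot be told apart.

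If conditions A and B had the same order in both tables, the guides can also be set against each other within a condition. In condition A limma called 0.61% of genes (85 genes) and 1 of the 9, NEFM, at a log2 difference of 0.44 (SE 0.08, adjusted p = 0.0477), a call that held in 1 of 12 fits with a library left out, the one without Luciferase condition A library 2. In condition B it called 0% of genes (0 genes, and 755 at an unadjusted p under 0.05), and NEFM differed by 0.27 (SE 0.08, adjusted p = 0.812). The NEFM difference thus had the same sign in both conditions.

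The other filament genes did not follow NEFM past the threshold. NEFL, its partner gene on the same chromosome, averaged 2110.4 ± 241 normalized reads in 6T libraries and 1949 ± 41.1 in Luciferase libraries (SD, n = 6 each), a limma log2 difference of 0.11 with a 95% interval of −0.05 to 0.26 (adjusted p = 0.369). VIM averaged 5568 ± 385 normalized reads in 6T libraries and 5116 ± 213 in Luciferase libraries, with an interval of 0.01 to 0.23 around 0.12 (limma adjusted p = 0.188). INA averaged 626 ± 85.0 and 692 ± 63.3 normalized reads in 6T and Luciferase libraries, with an interval of −0.33 to 0.04 around −0.15 (limma adjusted p = 0.301). These intervals leave room for differences of either sign for NEFL and INA. NEFH differed by −0.28 with a wide interval of −0.81 to 0.25 (limma adjusted p = 0.496).

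Among the microtubule genes, MAP1B averaged 1429 ± 179 normalized reads in 6T libraries and 1188 ± 107 in Luciferase libraries (SD, n = 6 each). Its limma log2 difference of 0.26 (interval 0.07 to 0.45) did not pass the threshold (adjusted p = 0.108). TUBB3 averaged 205 ± 26.6 and 237 ± 27.2 normalized reads in 6T and Luciferase libraries, a log2 difference of −0.21 (interval −0.44 to 0.02, limma adjusted p = 0.243). TUBB2B averaged 784 ± 53.4 and 759 ± 55.4 normalized reads under the same guides, a log2 difference of 0.05 (interval −0.10 to 0.19, limma adjusted p = 0.701). MAP2, at few reads, differed by −0.61 (interval −1.28 to 0.05, limma adjusted p = 0.241). Of the 9 genes, 5 had a higher mean under the 6T guide, 3 had an unadjusted p under 0.05 (NEFM, MAP1B and VIM), and the median log2 difference was 0.05 against 0.01 over all genes tested. An unadjusted p under 0.05 was found for 3325 of the 13941 genes in this comparison, 23.9%, so the 3 of 9 lie near the background.

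**Figure D3:**
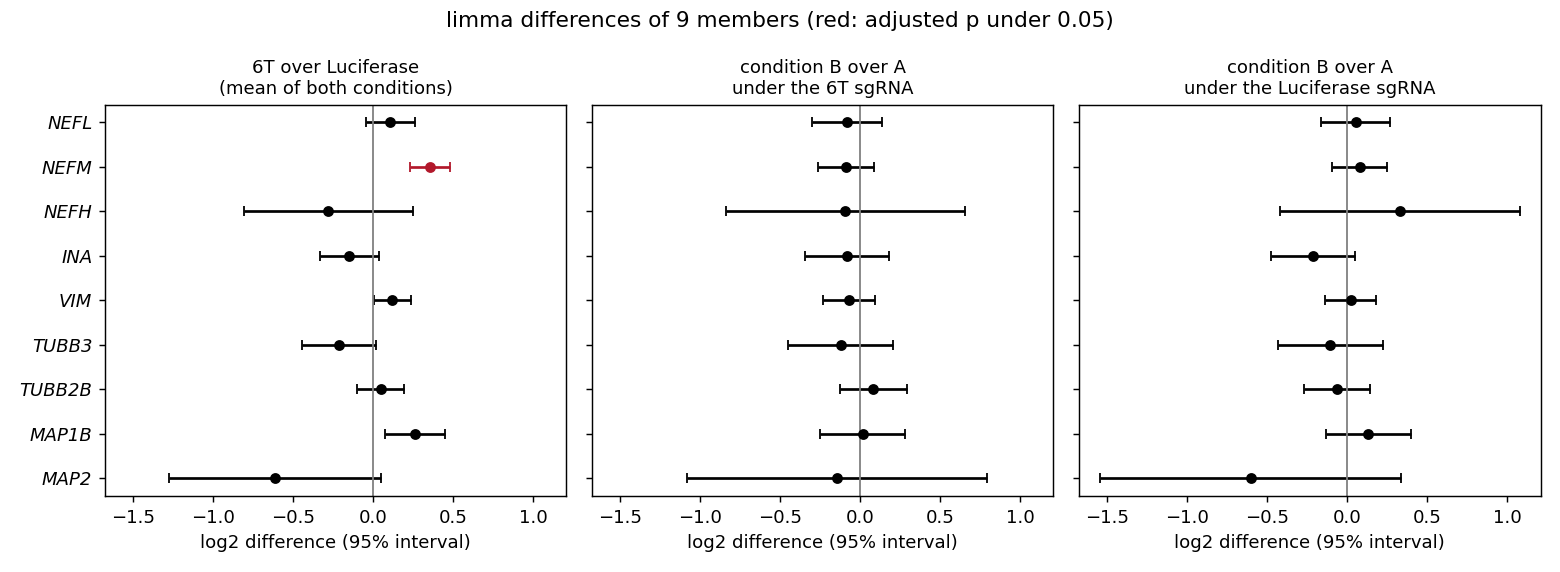
limma log2 differences of the 9 tested genes with 95% intervals, for the 6T over the Luciferase guide and for condition B over A under each guide, in red where the adjusted p was under 0.05. Only NEFM between guides is red, at 0.36.

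**Figure D4:**
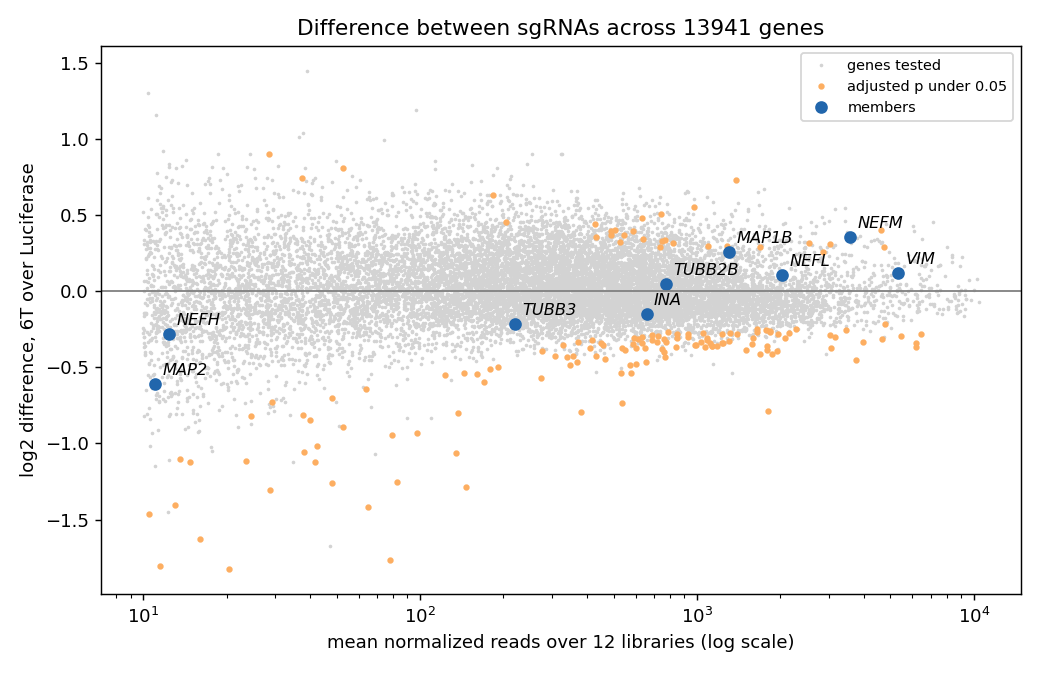
log2 difference of the 6T over the Luciferase guide against the mean normalized reads of 12 libraries (log axis) for 13941 genes in grey, called genes in orange and the 9 tested genes in blue. NEFM at 0.36 lies near the upper edge of genes of like abundance, and NEFL, VIM, INA and TUBB2B lie within them.

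The genes whose levels followed those of the 3 most abundant members over the 12 libraries were found by Pearson's r of log2 normalized reads among 11589 genes, as a description. All values share the same libraries and their normalization. NEFM ran closest to SNAI2, which encodes a zinc finger repressor of the Snail family (r = 0.972), followed by CBX1, a heterochromatin protein (r = 0.947), and SLIT2, an axon guidance ligand (r = 0.944). SNAI2 averaged 737 ± 57.7 normalized reads in 6T libraries and 528 ± 37.7 in Luciferase libraries (SD, n = 6 each). VIM ran closest to SETD3 (r = 0.899), an actin methyltransferase, NAP1L4 (r = 0.894), a histone chaperone, and RCN1 (r = 0.886), a calcium-binding protein of the endoplasmic reticulum. NEFL ran closest to SLC39A11 (r = 0.937), a zinc transporter, to the pseudogene PA2G4P4 (r = 0.910) and to CTSL (r = 0.902), which encodes cathepsin L.

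Other genes of the cytoskeleton were taken from 5 lists with 88 genes, all of them in both tables. The authors' deposited test called 0 of the 86 with a mean of 10 or more normalized reads in either table. Its share over all genes was 0.0416% under the 6T guide and 0% under the Luciferase guide. Between conditions B and A limma called 0 of the 83 it tested under either guide, against 0.0215% and 0% of all genes. Between guides limma called 0 of the 83 as higher and 2 as lower under the 6T guide. Over all 13941 genes tested it called 1.13%, with 31 higher and 127 lower. The 2 calls are too few to set the lists apart from that share. CAMSAP3, which binds microtubule minus ends, averaged 518 ± 22.6 normalized reads in 6T libraries and 661 ± 59.5 in Luciferase libraries (SD, n = 6 each), a log2 difference of −0.35 (SE 0.07, limma adjusted p = 0.0320). LMNA, which encodes the A-type nuclear lamins, averaged 1423 ± 92.7 and 1759 ± 156 normalized reads in 6T and Luciferase libraries, a log2 difference of −0.30 (SE 0.07, limma adjusted p = 0.0498). Neither call was stable. With a single library left out, CAMSAP3 was called only without 6T condition B library 1 or Luciferase condition A library 2, and LMNA only without Luciferase condition A library 2. Over all 19 alternative settings, these 12 included, CAMSAP3 kept its call in 7 and LMNA in 4. The log2 differences ranged from −0.41 to −0.22 for CAMSAP3 and from −0.35 to −0.19 for LMNA.

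By list, the median log2 difference of the 6T over the Luciferase guide was −0.14 for other intermediate filaments, with 4 of 12 higher, and −0.06 for other tubulins, with 3 of 11 higher. It was 0.06 for tubulin folding and modification, with 9 of 16 higher, 0.04 for other microtubule regulators, with 15 of 29 higher, and 0.02 for axonal motors, with 10 of 15 higher, against 0.01 over all genes. In 2 lists without a call, TUBE1, epsilon-tubulin, had a log2 difference of 0.56 (limma adjusted p = 0.0624) and KIF1A, a kinesin that carries synaptic vesicle precursors, one of −0.27 (limma adjusted p = 0.0681). TUBB2A, the near copy of TUBB2B, ranged from 183 to 281 normalized reads under the 6T guide and from 253 to 301 under the Luciferase guide.

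Markers of cell types were read beside these genes. Of 10 neuron markers, 6 had a mean of 10 or more normalized reads, among them SYP at a mean of 219, RBFOX3 at 173 and SYT1 at 94.7, while ELAVL4 had 1 read in all libraries. Their summed level was 570.3 to 680.1 normalized reads under the 6T guide and 597 to 679 under the Luciferase guide. Of 10 kidney epithelium markers, 6 passed, led by KRT8 at 1414 and KRT18 at 834, with UMOD at 0 in all 12 libraries, and summed to 2378 to 2684 under the 6T guide and 2450.0 to 2979 under the Luciferase guide. Glia markers (4 of 8) summed to 265 to 339 and 275 to 316, fibroblast markers (4 of 8, with FAP at 0) to 616 to 747 and 569.8 to 737, and blood markers (3 of 8, with CD3E and HBB at 0) to 83.1 to 108 and 84.2 to 114 under the 6T and the Luciferase guide. The ranges of the guides overlapped for each of the 5 marker lists. In bulk RNA a different share of cells and a different amount of RNA per cell cannot be told apart.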

How the data were processed

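The authors aligned reads of 12 polyA RNA libraries of HEK293T cells with STAR to hg38, counted them with HTSeq and tested them with DESeq, all without versions in the submitters' processing notes. Deposited values are mean read counts divided by size factors in conditions A and B, the ratio of B over A (fold change), its log2, and the p-value with its adjusted value, per the file headers. Rows naming no gene were left out. Of these, reads aligned more than once made up 19.4% to 24.6% and reads in no gene 16.3% to 17.8% of a group's deposited total. The deposited columns held pooled means and comparison statistics and no per-sample values, so 0 per-sample columns were left unmapped.

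Whole reads per library were recovered by search from the means (a single solution for 99.6% to 99.8% of genes above 0 per group). Genes without one held 6.03% to 12.2% of a library's reads. On simulated means 0 were wrong, but these were drawn from genes already solved, so they do not speak for the others. For means above 500 each library was searched only within 0.5 to 1.6 times the group mean. Above 3000 the limits were 0.7 and 1.35 times, and the reads of NEFM and VIM rest on that narrower search. The largest departure of a size factor from a median-of-ratios factor over the 12 libraries was 0.0581%, so both tables share a normalization.

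On log2(normalized reads + 1), limma 3.58.1 (R 4.3.3) was fitted with its trend option for 13941 genes with a mean of 10 or more, in 4 groups, with Benjamini-Hochberg adjustment over all genes. Intervals are 95%. The contrast between guides was also run on simulated data with 200 genes changed and an assumed spread, not one estimated from these libraries. It recovered 18% of 1.25-fold, 78.5% of 1.5-fold and 96.5% of 2-fold changes, with 3, 7 and 13 false calls. These rates may not hold for the real libraries. Alternatives were another pseudocount, no filter, other scaling, voom, thinning, GC correction and leaving out libraries.

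Gene positions and exon lengths are from GENCODE 29 (GRCh38), which matched 23925 of 26485 symbols (90.3%). The genes described and the lists were chosen with earlier results of these data known. Besides all 10 genes, up to 3 called genes per list and comparison, or else the 2 with the smallest p, could be named. The labels do not say that libraries came from separate cultures, so p-values measure the spread between these libraries, which may be technical.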

Additional observations from a re-analysis of the deposited data

How the results depend on the processing

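No paired analysis was possible because the recovered libraries carry no replicate number. The calls over all genes moved with the processing and with the libraries left out, as did the member values, and the cause was not tested. For condition B over A, the deposited 8 genes (6T) and 0 genes (Luciferase) became 167 and 246 without adjustment, and 3 under the 6T guide with limma. That limma count of 3 became 1 without the filter on low counts, 5 with scaling by total reads, 0 in a fit on its own table, 1 without the 3 Luciferase condition B libraries (an alternative chosen after seeing the data) and 0 to 5 with single libraries left out. The Luciferase limma count of 0 became 1 with GC correction and 0 to 1 with single libraries left out. Between guides the count of 158 became 357 with scaling by total reads. Without the Luciferase condition B libraries it became 257, with both 6T conditions set against Luciferase condition A alone. With single libraries left out it ranged from 15 to 335, with 335 without Luciferase condition A library 2. It was 15 without Luciferase condition A library 3 or condition B library 1. The count was 27, 77, 41 and 41 without 6T condition A libraries 1 and 2 and condition B libraries 2 and 3. It was 71, 36 and 29 without Luciferase condition A library 1 and condition B libraries 2 and 3. Within condition A the 85 became 148 with a pseudocount of 5, 9 without the filter, 313 with scaling by total reads, 4 with voom, 2 with thinned libraries, 13 with GC correction, 1 without the Luciferase condition B libraries and 0 to 1200.0 with single libraries left out, with 1200.0 without Luciferase condition A library 2. Within condition B the 0 became 1 with GC correction and 0 to 2 with single libraries left out, and the difference between guides of the B over A change stayed at 0 in every setting run. Per length of the longest transcript, VIM stood at 2004, TUBB3 at 112 and TUBB2B at 382 reads per kilobase. Of the member values, none of them called, these changed sign for condition B over A. With GC correction VIM was at −0.021, TUBB3 at 0.034 and TUBB2B at 0.056 (log2) under the Luciferase guide, and TUBB2B was at 0.0090 with thinned libraries. With single libraries left out, the 6T values ranged from −0.20 to 0.032 for NEFL, −0.19 to 0.036 for INA, −0.20 to 0.025 for TUBB3, −0.097 to 0.12 for MAP1B and −0.64 to 0.25 for MAP2, and the Luciferase values from −0.0018 to 0.16 for NEFM, −0.028 to 0.050 for VIM and −0.11 to 0.014 for TUBB2B. Depth limits NEFH, MAP2 and DCX, which have the fewest reads of the 10 genes.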
